A study of Caenorhabditis elegans with 14 samples.

Results

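This account covers the C. elegans genes that carry a numbered ceh name, given to homeobox genes of this nematode, in early embryos. Members were found by their WormBase symbol, ceh followed by a number, in the deposited table of counts per gene. Of 63 such genes in the table, 8 were left out (ceh-13, ceh-20, ceh-22, ceh-32, ceh-36, ceh-40, ceh-43 and ceh-51), and the remaining 55 of 20392 genes are described here. The RNA came from embryos of synchronized cultures grown at 20 °C, in 14 libraries of 4 genotypes. The treatment label is 20 °C for every library, although the extraction text also speaks of an exposure to temperatures it does not list. Wild type was the N2 Bristol strain (n = 3). The hpl-2 mutant (n = 4) carries hpl-2(tm1489), a deletion in the gene of an HP1 protein. The hpl-2-FFAA strain (n = 4) carries hpl-2-FFAA(px112), another allele of that gene. The double mutant, met-2 hpl-2 (n = 3), has met-2(n4256), an allele of a histone H3 lysine 9 methyltransferase gene, together with hpl-2(tm1489), so both hpl-2(tm1489) groups share that deletion. It is kept over the balancer hT2 of chromosomes I and III, whose full genotype the labels write with bli-4(e937), let-?(q782) and qIs48; the labels do not tell how homozygous embryos were picked. The labels call the source yeast cells, while the organism, stage and growth labels say worm embryo.

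Homeobox genes encode transcription factors that bind DNA through the homeodomain, a fold of helices of which the last lies in the major groove. They fall into classes by the sequence of the homeodomain and by further domains. The ANTP class includes the NK-like genes, the PRD-like class holds relatives of Otx and goosecoid, and the POU, sine oculis, LIM and TALE classes are named for the domain or feature that marks them. The CUT class carries a cut domain beside the homeodomain. In the worm many of these genes are first transcribed in a few embryonic cells and later set the identity of single neuron types, of epidermis or of pharynx. HP1 proteins such as HPL-2 bind histone H3 methylated at lysine 9, a mark of repressed chromatin.

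Libraries held 5332725 to 6390870 counts in wild type, hpl-2 and hpl-2-FFAA, and 14313366 to 14840992 in met-2 hpl-2. Levels are in CPM, edgeR's counts scaled to a common total with TMM-adjusted library sizes, given as mean ± SD. Transcripts of hpl-2 stood at 95.9 ± 5.46 CPM in wild type, 4.41 ± 0.693 in hpl-2, 65.3 ± 3.29 in hpl-2-FFAA and 10.03 ± 1.30 in the double mutant. Transcripts of met-2 stood at 287.7 ± 8.83 CPM in wild type and 29.4 ± 1.81 in met-2 hpl-2. Embryo genes of the early zygotic list were present in each group, and a list of 16 adult yolk and sperm genes summed to 3.59 to 12.2 CPM per library. Within hpl-2-FFAA, replicates 1 and 2 stood apart from replicates 3 and 4 (chi-square per degree of freedom 8.51 between replicates 2 and 3, against 1.11 between 3 and 4), so results of that strain are also given for each pair.

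In wild-type embryos the transcripts of these genes came mostly from the CUT class. The 6 CUT members summed to 917.2 to 946.03 CPM per wild-type library, against 1705 to 1726 CPM for all 55 members. Per kilobase of the deposited gene width, ceh-38 was highest with 148.2 ± 4.67 CPM per kb (SD, n = 3), followed by ceh-39 with 132.3 ± 2.35 and ceh-49 with 98.3 ± 1.498. All 3 belong to the ONECUT type of the CUT class, and ceh-39 is one of the X-linked signals that report the number of X chromosomes in sex determination. Next came ceh-100 with 72.7 ± 1.90, ceh-21 with 67.4 ± 2.77 and ceh-83 with 48.7 ± 1.99 CPM per kb. The wild-type libraries of neighbours did not overlap at any step down to ceh-83, nor between ceh-83 and ceh-58, while from ceh-58 (36.6 ± 1.058 CPM per kb) through ceh-86, ceh-27, ceh-41 and ceh-93 (30.7 ± 1.03) each overlapped the next.

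**Figure D1:**
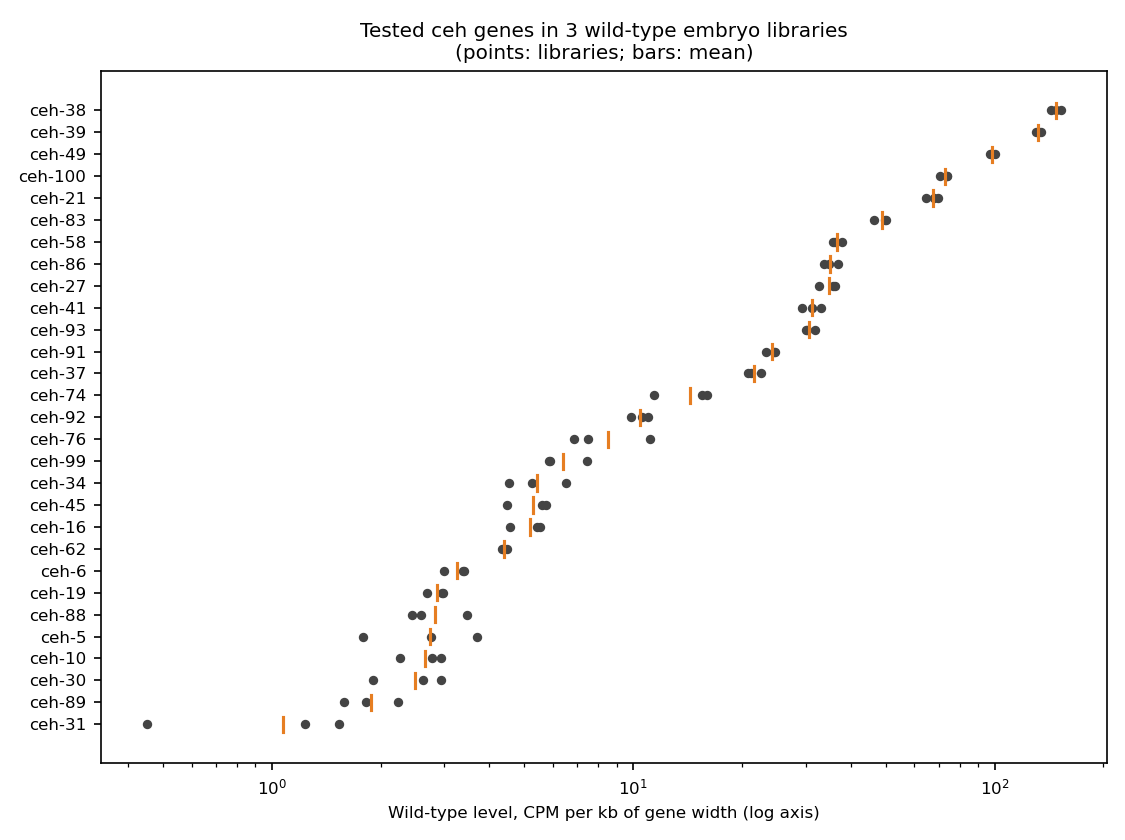
Level of the 29 tested ceh genes in the 3 wild-type libraries, in CPM per kb of gene width on a log axis, ordered by the mean; points are libraries and bars are means. Levels ran from 148.2 CPM per kb for ceh-38 to 1.07 for ceh-31.

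Several members known from single cell types were among the less abundant. Per kilobase, ceh-34, a sine oculis class gene of pharyngeal neurons, stood at 5.43 ± 1.01 CPM in wild type, ceh-45, a relative of goosecoid, at 5.26 ± 0.684 and the engrailed gene ceh-16 at 5.17 ± 0.520, and their libraries overlapped. The POU gene ceh-6, needed in the excretory cell, stood at 3.25 ± 0.228 and ceh-10, needed for the neurons AIY and CAN, at 2.66 ± 0.357 CPM per kb. In all, 40 to 45 of the 55 genes had at least 1 count in each wild-type library, 41 to 44 in hpl-2, 40 to 43 in hpl-2-FFAA and 49 to 50 in the more deeply sequenced met-2 hpl-2 libraries. The share of all counts held by the 55 genes was 0.170% to 0.183% in every library.

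The low-count filter left 29 of the 55 genes for testing, 26 were too low, and tests were adjusted over all 9498 genes that passed. The untested genes reached at most 28 counts in any library. No count was seen in any library for ceh-12, a relative of the motor neuron gene HB9, and for ceh-54. As an approximate upper limit for a count of 0, 3 counts per library were taken, which correspond to 0.202 to 0.563 CPM. Of the untested genes ceh-48, a CUT gene of neurons, had the most counts over all libraries (123), with 0.509, 0.674 and 0.989 CPM in wild type and 1.67, 2.05 and 1.59 CPM in met-2 hpl-2. The NK-like gene ceh-9 had 0, 1 and 0 counts in wild type and 14, 16 and 15 in met-2 hpl-2, or 1.02, 1.17 and 1.08 CPM there. With no filter, 24 of these genes could be fitted, and ceh-9, ceh-8, ceh-48 and ceh-87 were called higher in the more deeply sequenced met-2 hpl-2 than in wild type, where 17.6% of all 18587 genes in that fit were called higher. No untested gene was called in hpl-2 or hpl-2-FFAA against wild type, where that fit called 20.3% and 0.516% of all genes.

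The hpl-2 mutant addresses which of these genes change when HPL-2 is lost. In the hpl-2 mutant 5 of the 29 tested genes rose (17.2%) and 8 fell (27.6%) at a Benjamini-Hochberg adjusted p under 0.05, where 20.2% of all tested genes were called higher and 21.6% lower (41.8% either way). The counts therefore lay near the background share in both directions. The median log2 fold change of the 29 was -0.24, against 0.00 over all tested genes. In 16 of the 29 genes all mutant libraries lay on one side of all wild-type libraries, as in 49% of all tested genes.

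The largest change was that of ceh-91 (WBGene00013425, chromosome III, 11616746 to 11623994 on the plus strand of WBcel235). Its level was 52.8, 50.4 and 53.1 CPM in the wild-type libraries and 115.8, 137.5, 130.7 and 137.2 CPM in the hpl-2 libraries. All hpl-2 libraries lay above all wild-type libraries by more than the spread within either group. The log2 fold change was 1.32 (SE 0.0751, adjusted p = 5.16e-10). In met-2 hpl-2 the level of ceh-91 was 110.8, 111.5 and 105.7 CPM, a log2 fold change of 1.07 against wild type (SE 0.0764, adjusted p = 2.60e-09). Against the hpl-2 mutant, the double mutant gave -0.25 (SE 0.0638, adjusted p = 0.00172). In hpl-2-FFAA the level was 59.3, 52.99, 66.0 and 66.0 CPM, and the log2 difference from wild type of 0.23 (SE 0.0804) was not called (adjusted p = 0.294).

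A neighbour on the same strand, ceh-92 (WBGene00013431, 11581600 to 11589133), lies 27.6 kb from ceh-91 with 5 coding genes between them. Its level was 25.4, 26.5 and 23.7 CPM in wild type, 28.9, 35.6, 35.6 and 33.7 CPM in hpl-2 and 37.5, 37.1 and 35.9 CPM in met-2 hpl-2, so libraries of both mutants lay above wild type. The log2 fold change of ceh-92 was 0.41 in hpl-2 (SE 0.0951, adjusted p = 0.00240) and 0.55 in met-2 hpl-2 (SE 0.0926, adjusted p = 6.61e-05). In hpl-2-FFAA it stood at 24.7, 20.6, 25.3 and 26.9 CPM, which overlapped wild type. The pair was chosen for this look after its values were seen. The 11 other tested genes within 50 kb of the pair had a median of 0.04 (log2 fold change, hpl-2), with 1 called higher and 1 lower and values from -0.63 to 0.41. On the rest of chromosome III 19.9% of 1717 tested genes were called higher in hpl-2. The pair lies 0.861 and 0.826 Mb from hpl-2 itself, which is on the same chromosome.

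**Figure D2:**
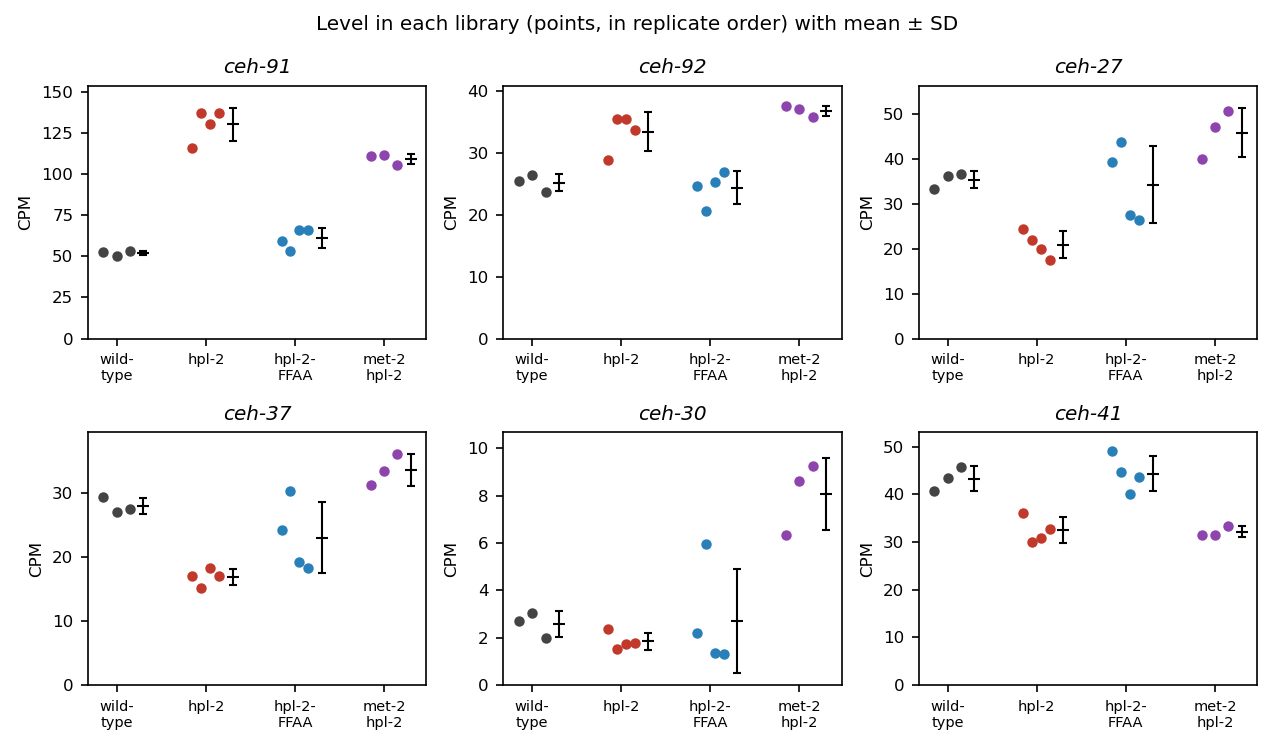
Level in CPM of 6 genes in each library, with points in replicate order and bars for mean ± SD by genotype. All hpl-2 libraries lay above wild type for ceh-91 and ceh-92 and below it for ceh-27, ceh-37 and ceh-41, and the hpl-2-FFAA points of ceh-27 and ceh-37 reached from below the lowest to above the highest wild-type library.

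Genes that fell in hpl-2 were led by ceh-27, an NK-2 family gene, and ceh-37, an Otx-like gene that acts in the olfactory neuron AWB. The level of ceh-27 was 33.3, 36.2 and 36.8 CPM in wild type and 24.4, 21.9, 19.9 and 17.6 CPM in hpl-2 (log2 -0.75, SE 0.159, adjusted p = 0.00113). The level of ceh-37 was 29.4, 26.97 and 27.5 CPM in wild type and 17.03, 15.1, 18.2 and 17.02 CPM in hpl-2 (log2 -0.73, SE 0.138, adjusted p = 0.000418). In both genes every mutant library lay below every wild-type library. Further genes that fell were ceh-86 (log2 -0.51, SE 0.106), ceh-62 (-0.66, SE 0.192), ceh-93 (-0.31, SE 0.0617) and ceh-16 (-0.71, SE 0.254), with adjusted p of 0.000902, 0.0100, 0.000672 and 0.0329. The lower genes ceh-34, ceh-10, ceh-45 and ceh-6 had log2 values of -0.90, -0.49, -0.57 and -0.45 in hpl-2, none of them called, and ceh-76 missed the threshold at -0.87 (SE 0.343, adjusted p = 0.0501).

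The CUT genes, which include the most abundant of the family, changed in both directions in hpl-2. ceh-38 rose from 405.5 ± 12.8 to 442.7 ± 14.9 CPM (log2 0.13, SE 0.0360, adjusted p = 0.00910) and ceh-49 from 110.4 ± 1.68 to 123.98 ± 8.11 CPM (log2 0.17, SE 0.0655, adjusted p = 0.0495). ceh-41 fell from 43.3 ± 2.55 to 32.5 ± 2.69 CPM (log2 -0.42, SE 0.0830, adjusted p = 0.000700) and ceh-21 from 128.6 ± 5.29 to 117.3 ± 3.64 CPM (log2 -0.13, SE 0.0461, adjusted p = 0.0289). ceh-39 gave -0.05 (SE 0.0379) and was not called. Of the unclassified genes ceh-100 rose slightly (log2 0.11, SE 0.0405, adjusted p = 0.0431). Several calls depended on which libraries entered the fit: leaving out 1 of the 7 libraries ended that of ceh-49 and of ceh-100 in 6 cases each (adjusted p = 0.0871 to 0.135 and 0.0581 to 0.184), of ceh-21 in 5 (0.0534 to 0.136) and of ceh-16 in 4 (0.0652 to 0.147), and that of ceh-38 without wild-type replicate 1 (0.0645). Without wild-type replicate 1 the count of called members fell to 8, with 2 higher and 6 lower.

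The hpl-2-FFAA strain addresses whether this allele changes the same genes as the deletion does. None of the 29 genes was called against wild type in edgeR's test, where 0.779% of all tested genes were called. DESeq2 called 0 as well, and each tool gave 3 genes with an unadjusted p under 0.05, in edgeR ceh-37, ceh-39 and ceh-91. Their median log2 fold change was -0.04, and 3 genes had all hpl-2-FFAA libraries on one side of wild type (9.7% of all tested genes). The spread within hpl-2-FFAA was wide: ceh-27 stood at 39.4 and 43.9 CPM in replicates 1 and 2 and at 27.6 and 26.4 CPM in replicates 3 and 4, and ceh-37 at 24.2, 30.3, 19.2 and 18.3 CPM. Replicates 1 and 2 both lay above replicates 3 and 4 in 12 of the 29 genes, and below them in 7, against 28.4% and 29% of all tested genes. With replicates 3 and 4 alone, 3 genes were called against wild type (8.44% of all tested genes): ceh-37 lower (log2 -0.58, SE 0.116, adjusted p = 0.00467), ceh-86 lower (-0.35, SE 0.0783, adjusted p = 0.00877) and ceh-91 higher (0.34, SE 0.0806, adjusted p = 0.0121). With replicates 1 and 2 alone, 0 were called (0.505% of all tested genes). The pairs were formed from the difference seen between these same libraries. Adjusted p of a pair alone, here and against hpl-2, therefore leaves out the spread between pairs and is not a test of the strain.

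The direct comparison of both hpl-2 alleles called 10 of the 29 genes, 7 higher and 3 lower in hpl-2-FFAA, where 18.7% of all tested genes were called higher and 16.5% lower (35.2% either way). The libraries separated fully in 7 genes, against 29.4% of all tested genes. ceh-91 stood lower in hpl-2-FFAA than in hpl-2, with a log2 difference of -1.09 (SE 0.0672, adjusted p = 3.16e-09) and ceh-92 by -0.45 (SE 0.0883, adjusted p = 0.000915). ceh-41 stood higher by 0.45 (SE 0.0772, adjusted p = 0.000355), ceh-27 by 0.70 (SE 0.150, adjusted p = 0.00177), ceh-86 by 0.37 (SE 0.10, adjusted p = 0.00846) and ceh-93 by 0.21 (SE 0.0580, adjusted p = 0.00971). The other calls were ceh-10, ceh-16 and ceh-37, higher by 0.90, 0.65 and 0.44, and ceh-38, lower by -0.09. Without hpl-2-FFAA replicate 2 the count fell to 6 and the calls of ceh-10, ceh-37, ceh-16 and ceh-38 were lost. Over every case in which leaving out 1 of the 8 libraries lost a call, adjusted p was 0.0685 for ceh-10 (1 case), 0.0530 to 0.0657 for ceh-37 (2 cases), 0.0630 to 0.188 for ceh-16 (6 cases) and 0.0536 to 0.140 for ceh-38 (6 cases). With hpl-2-FFAA replicates 3 and 4 alone, ceh-91, ceh-92, ceh-41 and ceh-93 were called (15.3% of all tested genes). With replicates 1 and 2 alone, 15 of the 29 were called (42% of all tested genes), among them ceh-91, ceh-92 and ceh-41, while ceh-93 was not (0.15, SE 0.0734, adjusted p = 0.119).

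**Figure D3:**
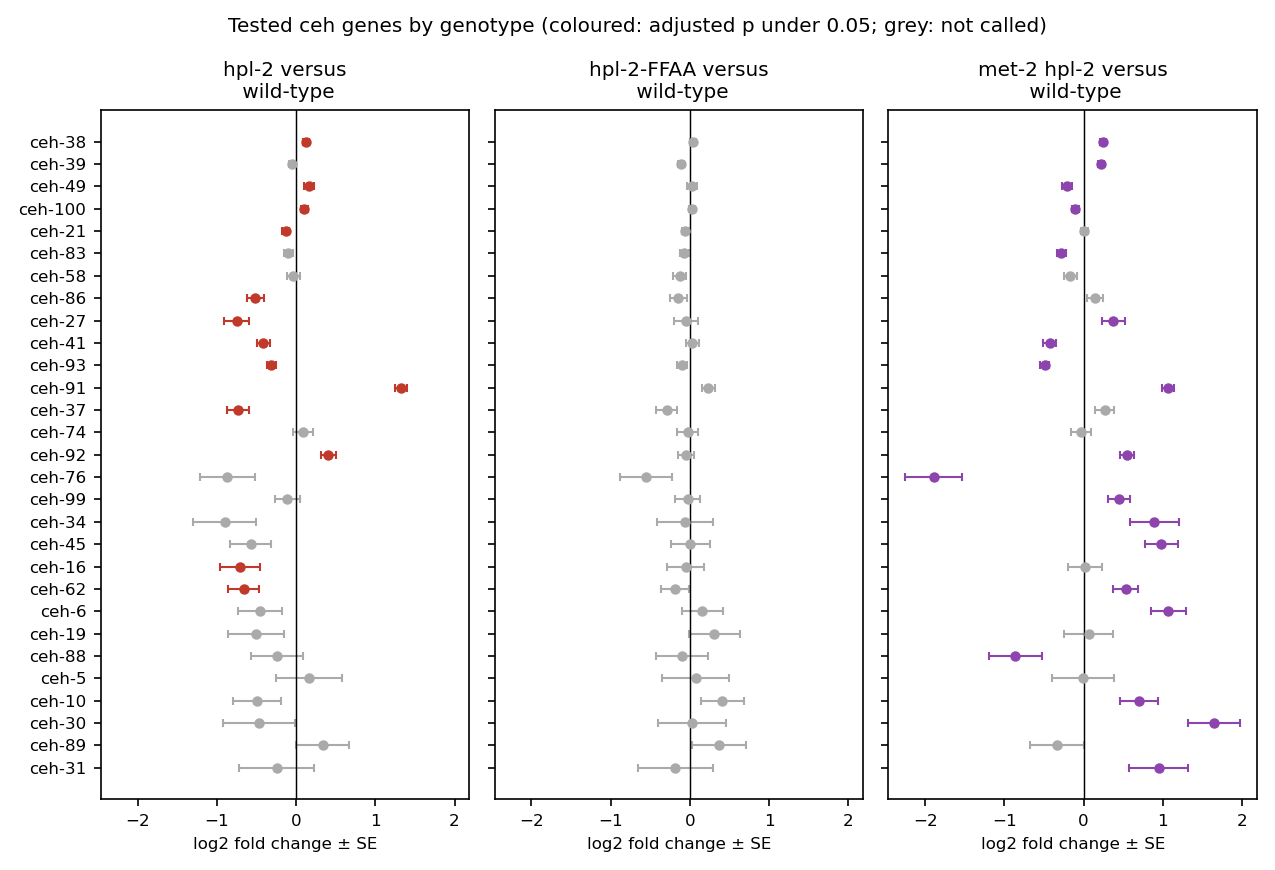
Log2 fold change ± SE of the 29 tested genes in the 3 mutant strains, each against the same 3 wild-type libraries, with genes in order of the wild-type level per kb. Coloured points passed an adjusted p under 0.05: 13, 0 and 20 of the 29.

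The met-2 hpl-2 strain addresses what changes when the methyltransferase MET-2 is affected beside HPL-2. Against wild type 13 of the 29 genes rose (44.8%) and 7 fell (24.1%), where 28.7% of all tested genes were called higher and 29.4% lower (58.1% either way). Of 15 tested genes with a mean under 20 CPM over all libraries 8 rose and 2 fell (53.3% and 13.3%), where 33.8% of all tested genes under that level were called higher and 16.7% lower. Their median log2 was 0.45, against 0.20 over all genes of that level. Of 14 genes above it 5 rose and 5 fell (35.7% each), where 25.3% and 37.6% of all such genes were called, and their median was 0.08, against -0.06. In 22 of the 29 genes all double-mutant libraries lay on one side of wild type, as in 67.0% of all tested genes. The means that set the levels include the double mutant, which was sequenced more deeply than the other groups. The 8 rises under 20 CPM include ceh-31, which passed the filter only at that depth. With met-2 hpl-2 thinned to the depth of the others, ceh-10, ceh-27, ceh-34, ceh-99 and ceh-88 were not called (adjusted p = 0.0532 to 0.201). At full depth ceh-88 was the fall among these and the others were rises.

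The largest rise was that of ceh-30, a Bar-type gene known for the survival of the CEM neurons of males. It stood at 2.71, 3.03 and 1.98 CPM in wild type and at 6.33, 8.62 and 9.25 CPM in met-2 hpl-2 (log2 1.64, SE 0.333, adjusted p = 0.000378). In hpl-2-FFAA ceh-30 stood at 2.20, 5.95, 1.36 and 1.30 CPM. Its neighbour ceh-31, another Bar-type gene 3.10 kb away on the opposite strand, stood at 1.36, 1.69 and 0.494 CPM in wild type and at 1.89, 2.27 and 2.67 CPM in met-2 hpl-2 (log2 0.95, SE 0.375, adjusted p = 0.0379). All double-mutant libraries lay above all wild-type libraries in both genes, yet ceh-31 passed the filter only at the full depth of the double mutant and its call was lost when wild-type replicate 1 or 3 or met-2 hpl-2 replicate 2 or 3 was left out (adjusted p = 0.0637 to 0.223).

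The POU gene ceh-6 rose from 5.20 ± 0.365 to 10.9 ± 1.57 CPM (log2 1.07, SE 0.221, adjusted p = 0.000478) and ceh-45 from 4.36 ± 0.567 to 8.62 ± 0.808 CPM (log2 0.98, SE 0.205, adjusted p = 0.000505). ceh-34 stood at 7.13, 5.73 and 4.94 CPM in wild type and at 9.24, 8.99 and 14.8 CPM in met-2 hpl-2 (log2 0.89, SE 0.309, adjusted p = 0.0192). In hpl-2-FFAA ceh-6 stood at 5.41, 9.48, 3.56 and 5.05 CPM and ceh-34 at 7.26, 9.30, 3.39 and 3.10 CPM. ceh-45 stood there at 4.90, 6.32, 3.39 and 3.10 CPM. Replicate 2 of hpl-2-FFAA thus lay within the double-mutant range of ceh-6 and ceh-34. The call of ceh-34 was lost without met-2 hpl-2 replicate 3 or wild-type replicate 2 or 3 (adjusted p = 0.0596 to 0.104). Smaller rises were those of ceh-10 (log2 0.70), ceh-62 (0.53), ceh-99 (0.45) and ceh-27 (0.37). Of these, ceh-62 alone kept its call whichever library was left out; those of ceh-27, ceh-10 and ceh-99 were lost in 5, 2 and 2 of 6 cases (adjusted p = 0.0598 to 0.120, 0.0525 to 0.0919 and 0.0631 to 0.0664). ceh-10 lies wholly within polq-1 on the other strand. The library kit is stranded per the labels, but the use of strand in counting was not stated. Whether reads of the 2 genes were told apart is therefore not known.

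Among the genes that fell in met-2 hpl-2, ceh-76 stood at 3.05, 4.55 and 2.80 CPM in wild type and at 0.873, 1.02 and 0.867 CPM in the double mutant (log2 -1.89, SE 0.359, adjusted p = 0.000202). ceh-93 stood at 50.2, 53.4 and 50.8 CPM against 36.01, 36.6 and 37.1 (log2 -0.49, SE 0.0615, adjusted p = 2.29e-06), and ceh-41 at 40.7, 43.3 and 45.8 against 31.4, 31.5 and 33.4 (log2 -0.43, SE 0.0813, adjusted p = 0.000192). In these 3 genes all double-mutant libraries lay below wild type. ceh-83 (log2 -0.28), ceh-49 (-0.21) and ceh-100 (-0.10) fell less, and ceh-88 gave -0.86 (SE 0.332, adjusted p = 0.0328). The calls of ceh-88 and ceh-100 were each lost in 4 of 6 cases when 1 library was left out (adjusted p = 0.0540 to 0.149 and 0.0602 to 0.128), and that of ceh-49 without met-2 hpl-2 replicate 3 (0.0537). ceh-88 overlaps C49C3.6 on the same strand over 909 bases. The CUT genes ceh-38 (log2 0.24, SE 0.0376) and ceh-39 (0.21, SE 0.0390) rose, with adjusted p of 3.09e-05 and 0.000139.

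Set directly against the hpl-2 mutant, met-2 hpl-2 had 15 of the 29 genes higher and 7 lower, where 36% of all tested genes were called higher and 35.2% lower (71.2% either way). The libraries separated fully in 22 genes, against 69.9% of all tested genes. ceh-30 gave the largest difference, 2.11 on the log2 scale (SE 0.321, adjusted p = 1.18e-05), ceh-34 gave 1.79 (SE 0.318, adjusted p = 6.23e-05), ceh-45 1.55 (SE 0.202, adjusted p = 1.83e-06), ceh-6 1.52 (SE 0.214, adjusted p = 4.73e-06) and ceh-62 1.19 (SE 0.159, adjusted p = 2.45e-06). ceh-27 and ceh-37, both lower in hpl-2 than in wild type, stood higher in met-2 hpl-2 than in hpl-2 by 1.13 (SE 0.142) and 1.00 (SE 0.123), with adjusted p of 1.25e-06 and 9.60e-07. With the axis of replicate differences, defined after the marker lists, regressed out, ceh-30 and ceh-34 turned to -0.29 and -0.94 in this comparison. ceh-27 then gave -0.078, ceh-45 0.058, ceh-6 0.21, ceh-37 0.16 and ceh-62 1.07. The same removal also moved genes called in no comparison: ceh-5 from -0.17 to -2.14 and ceh-19 from 0.56 to -0.81. It moved ceh-58 from -0.13 to -0.11 and ceh-74 from -0.12 to 0.15. Without that removal, the largest fall was that of ceh-76 (log2 -1.03, SE 0.379, adjusted p = 0.0216), lost without hpl-2 replicate 1, 2 or 3 or met-2 hpl-2 replicate 3 (0.0511 to 0.0822). ceh-49 lay lower by -0.38 (SE 0.0621, adjusted p = 2.92e-05). The call of ceh-89 (-0.67, SE 0.296, adjusted p = 0.0497) was lost in 6 of 7 cases with 1 library left out (0.0542 to 0.175). These comparisons share libraries with those against wild type, and their values are not independent. Called in no comparison were ceh-58, ceh-74, ceh-5 and ceh-19; ceh-58 stood at 43.2 ± 1.25 CPM in wild type and 38.4 ± 3.56 in met-2 hpl-2, and ceh-74 at 12.6 ± 2.21 and 12.3 ± 1.15. ceh-74 overlaps cest-2.3 over 1550 bases and ceh-5 overlaps ocrl-1 over 838, both on the opposite strand, so their values carry the same uncertainty as that of ceh-10.

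**Figure D4:**
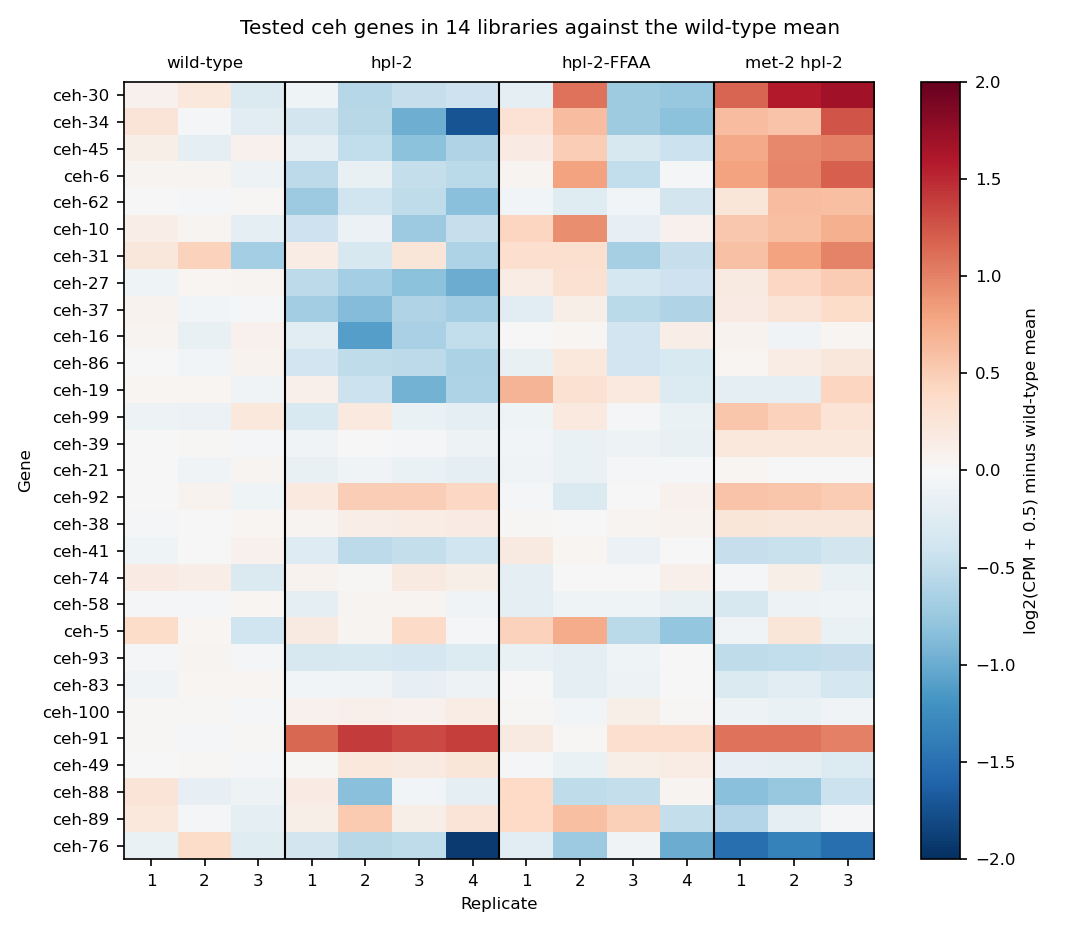
Log2(CPM + 0.5) of the 29 tested genes in each of the 14 libraries minus the mean of the 3 wild-type libraries, with genes ordered by the log2 fold change of met-2 hpl-2 against hpl-2. The top rows, ceh-30, ceh-34, ceh-45 and ceh-6, were red in met-2 hpl-2 and pale to blue in hpl-2, and ceh-91 was red in both strains with the hpl-2 deletion.

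Genes that mark the age of the embryo moved with these groups. A list of 20 maternal genes summed to 11474 to 11880 CPM per wild-type library, 13532 to 15581 in hpl-2, 10820 to 13535 in hpl-2-FFAA and 11148 to 12100 in met-2 hpl-2. In hpl-2 12 of the 20 rose and 0 fell (60%, against 20.2% of all tested genes called higher). In met-2 hpl-2 3 rose and 6 fell (15% and 30%, against 28.7% and 29.4%). A list of 22 early zygotic genes summed to 1658 to 1701 CPM in wild type, 1359 to 1444 in hpl-2, 1491 to 1543 in hpl-2-FFAA and 1679 to 1723 in met-2 hpl-2. Of its 19 tested genes 10 fell and 0 rose in hpl-2, and 11 fell and 2 rose in met-2 hpl-2 (52.6% and 57.9% lower, against 21.6% and 29.4% of all tested genes). In hpl-2-FFAA 3 of the 19 fell and 0 rose (15.8% lower, against 0.232% of all tested genes). A list of 19 genes of differentiating muscle, gut, epidermis and pharynx summed to 1298 to 1353 CPM in wild type and 1048 to 1190 in hpl-2. It summed to 1184 to 1526 CPM in hpl-2-FFAA and 1779 to 2100 in met-2 hpl-2. Of its 17 tested genes 16 rose in met-2 hpl-2 (94.1%, against 28.7%). In hpl-2 2 of them rose and 6 fell (11.8% and 35.3%, against 20.2% and 21.6% of all tested genes). A list of 20 neuron genes summed to 731.7 to 747.4 CPM in wild type, 622.9 to 661.8 in hpl-2, 672.4 to 771.9 in hpl-2-FFAA and 859.4 to 992.8 in met-2 hpl-2. Of its 15 tested genes 1 rose and 8 fell in hpl-2 (6.67% and 53.3%, against 20.2% and 21.6% of all tested genes). In met-2 hpl-2 7 rose and 1 fell (46.7% and 6.67%, against 28.7% and 29.4%). No gene of the maternal, tissue and neuron lists was called in hpl-2-FFAA against wild type. No gene of these 4 lists was at 0 throughout any group. The 15 tested ceh genes with a mean under 20 CPM summed to 59.7 to 69.2 CPM in wild type, 46.4 to 55.5 in hpl-2, 53.97 to 82.2 in hpl-2-FFAA and 82.4 to 97.9 in met-2 hpl-2. The part of these lists in the ceh values was not tested, and in bulk embryos fewer cells of a type and less RNA per cell cannot be told apart.

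**Figure D5:**
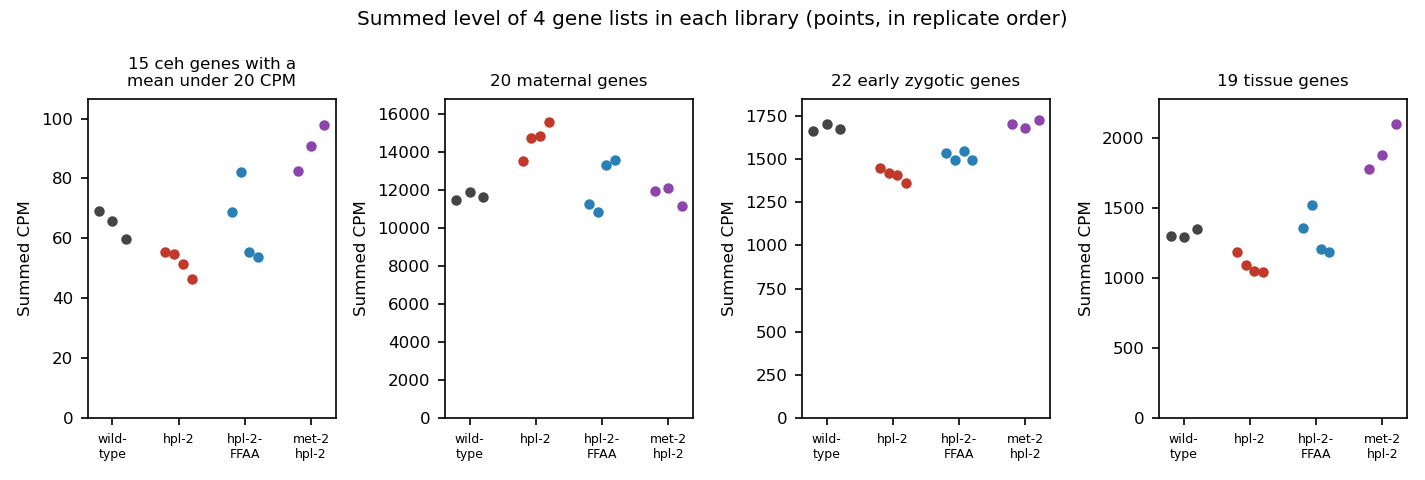
Summed CPM in each library of the 15 tested ceh genes with a mean under 20 CPM and of 20 maternal, 22 early zygotic and 19 tissue genes, with points in replicate order. All hpl-2 libraries lay below and all met-2 hpl-2 libraries above wild type in the ceh and tissue sums, with hpl-2-FFAA replicates 1 and 2 above replicates 3 and 4 in both.

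Replicates of a group differed along a shared axis, the leading principal component of log2 levels centred on each group, computed over 5740 genes at 20 CPM or more on average (53.9% of the variance left). Scores ran from -11.2 to 8.12 in hpl-2-FFAA, -6.90 to 4.96 in hpl-2, -3.86 to 3.05 in met-2 hpl-2 and -1.14 to 1.59 in wild type. With each gene's loading on that axis regressed out of the fold changes, the median of the 29 genes went from -0.24 to -0.04 (hpl-2) and from 0.14 to -0.03 (the double mutant). The value of ceh-91 in hpl-2 went from 1.32 to 1.05, of ceh-92 from 0.41 to 0.13, of ceh-27 from -0.75 to -0.11 and of ceh-37 from -0.73 to -0.29. In met-2 hpl-2 that of ceh-30 went from 1.64 to 0.52, of ceh-34 from 0.89 to -0.38 and of ceh-76 from -1.89 to -2.17. Over all called values, 14 of 65 changed sign: 1 of 13 in hpl-2 and 3 of 20 in met-2 hpl-2 against wild type, 1 of 10 in hpl-2-FFAA against hpl-2 and 9 of 22 in met-2 hpl-2 against hpl-2. The mutant libraries set most of this axis, and an effect of genotype that differs in strength between libraries would be removed with it. The slope of the removal was fitted to the fold changes themselves over the 5740 genes. Members under 20 CPM on average took no part in setting the axis or the slope. Loading and fold change correlated at 0.71 for hpl-2 against wild type and -0.75 for met-2 hpl-2 against hpl-2.

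The genes lie on all 6 chromosomes, with 16 of 55 on X, 13 on II, 9 on V, 8 on I, 5 on III and 4 on IV. Of the tested genes 8 are X-linked. Their median log2 fold change in hpl-2 was -0.28, against -0.22 over 1122 tested X-linked genes, and in met-2 hpl-2 it was 0.11 against 0.12. Several lie side by side. ceh-41, ceh-21 and ceh-39, all CUT genes, lie in this order on the minus strand of X between 1846608 and 1856172. The first 2 are 0.10 kb apart, and 1 coding gene lies between ceh-21 and ceh-39. Their log2 fold changes in met-2 hpl-2 differed in sign, with ceh-41 at -0.43, ceh-21 at 0.01 (SE 0.0466) and ceh-39 at 0.21, and in hpl-2 they were -0.42, -0.13 and -0.05. On chromosome II, ceh-81 and ceh-82 lie 0.27 kb apart and ceh-82 and ceh-83 0.42 kb, and of these ceh-83 alone was tested, at 92.2 ± 3.78 CPM in wild type. ceh-33 and ceh-34, both of the sine oculis class, lie 3.62 kb apart on V, and ceh-33 had at most 1 count in any library.

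Other homeobox genes gave lists to set beside these. Of the 8 ceh genes left out, 7 were tested and all 7 fell in hpl-2, with a median log2 of -0.53, where 21.6% of all tested genes were called lower; the smallest adjusted p was that of ceh-51 (log2 -0.53, SE 0.0798, adjusted p = 5.65e-05). In met-2 hpl-2 3 of those 7 rose and 2 fell (42.9% and 28.6%, against 28.7% and 29.4% of all tested genes). Of 37 homeobox genes with other names, 28 were tested. In hpl-2 2 of them rose and 14 fell (7.14% and 50%, against 20.2% and 21.6% of all tested genes), with a median of -0.47. The smallest adjusted p each way belonged to zfh-2 (0.41, SE 0.0963, adjusted p = 0.00226) and duxl-1 (-0.56, SE 0.0740, adjusted p = 1.74e-05). In met-2 hpl-2 15 rose and 0 fell (53.6% higher, against 28.7% of all tested genes), with a median of 0.45, and the smallest adjusted p was that of hmbx-1 (0.43, SE 0.0582, adjusted p = 5.98e-06). In hpl-2-FFAA no gene of either list was called against wild type. The corresponding medians of the 29 numbered ceh genes were -0.24 in hpl-2 and 0.14 in met-2 hpl-2.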

How the data were processed

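Raw counts per gene, deposited by the authors, were used with the gene width in bases given beside them; the columns are whole numbers with differing totals, and 0 columns of sample values were left out. The submitters' processing notes name Trimmomatic 0.39, a read trimmer, and the build ce10. Not given in the sources used here were the aligner, the counter, its use of strand (the library kit is stranded, per the labels) and the annotation. Symbols came from a WormBase name table (19182 of 20392 identifiers matched) and positions from Ensembl's WBcel235 annotation, not converted to ce10. All 14 libraries entered a single edgeR 4.0.16 fit of 4 groups (R 4.3.3; filterByExpr, TMM, quasi-likelihood test), with Benjamini-Hochberg adjustment over 9498 genes in each of 5 comparisons. A gene was called at an adjusted p under 0.05; every adjusted p is from this edgeR test unless DESeq2 1.42.0 is named. SE was taken as the absolute log2 fold change over the root of the F statistic. All 18 replicate pairs differed beyond sampling noise in a chi-square test. Nothing in the labels ties replicates to separate cultures, so p-values reflect only how these libraries vary, which may be technical variation. Named genes were members called in at least 1 comparison or with a group mean of at least 5 CPM. Members, classes and lists were chosen with earlier results of these data known. The fitting script was tested on simulated data for hpl-2 against wild type. It recovered 73.2% of 97 genes changed 1.5-fold and 85.6% of 97 changed 2-fold, and called 8 unchanged genes, out of 9234 genes in all. The simulation changed few genes and held no shared axis of replicate differences. In the data 41.8% of tested genes were called in that comparison, so these rates need not hold there. Limits from counts cover counting error only. Alternatives were RLE size factors, library size alone, no filter or a stricter one (10 counts in 7 libraries), the 2 groups compared alone, DESeq2, a replicate block, thinned met-2 hpl-2 libraries, each library left out, pairs of hpl-2-FFAA replicates, and removal of a replicate axis (for single genes added after the data were seen).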

Additional observations from a re-analysis of the deposited data

Results flagged for a closer look

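Of 54 sets of 4 libraries examined for a sample far from the others, 1 was flagged, and chance flags about 1 in 20. In hpl-2, ceh-6 stood at 4.62 CPM in replicate 2, the highest, against 3.40 to 3.61 CPM in the other libraries; its log2 fold change against wild type was not called.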

How the results depend on the processing

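Of 65 called pairs of gene and comparison, 40 kept their call and direction in every refit with a test, 25 lost the call in at least 1, and 0 reversed in these. With 1 library left out, the count of called genes ran from 8 (without wild-type replicate 1) to 15 for hpl-2, 0 to 0 for hpl-2-FFAA and 15 to 18 for met-2 hpl-2, each against wild type. Against hpl-2 it ran from 6 (without hpl-2-FFAA replicate 2) to 15 for hpl-2-FFAA and from 20 to 22 for met-2 hpl-2. The counts moved over 1.5 times in 2 other cases, both with hpl-2-FFAA replicates 3 and 4 alone: 3 against wild type and 4 against hpl-2; the cause was not tested. With met-2 hpl-2 thinned to 5846490 counts per library, 14 genes were called against wild type where 20 were at full depth. For the thinned, leave-one-out and replicate-block fits, here and above, the share of all tested genes called is not given. Their counts therefore do not tell whether ceh genes moved more than other genes. With the replicate axis removed, medians were -0.04, -0.02 and -0.03 for hpl-2, hpl-2-FFAA and the double mutant against wild type, and -0.0033 and -0.05 for hpl-2-FFAA and the double mutant against hpl-2. For single genes this alternative, which has no test, was added after seeing the data, and 14 of the 65 values changed sign. Against hpl-2, met-2 hpl-2 then gave -0.089 for ceh-10, -0.078 for ceh-27, -0.29 for ceh-30, -0.59 for ceh-31, -0.94 for ceh-34, 0.10 for ceh-49, -0.15 for ceh-86, 0.25 for ceh-91 and 0.0061 for ceh-93, and hpl-2-FFAA gave -0.015 for ceh-86. Against wild type, met-2 hpl-2 gave -0.19 for ceh-27, -0.38 for ceh-34 and 0.011 for ceh-49, and hpl-2 gave -0.086 for ceh-49; the cause was not tested. Same-numbered samples correlated from -0.49 to 0.54, over 0.1 in 4 of 19 pairs. Between hpl-2 and hpl-2-FFAA, replicates 1 to 4 gave 0.50, 0.037, 0.30 and 0.54. Differently numbered samples of these strains gave up to 0.67 (hpl-2 replicate 1 with hpl-2-FFAA replicate 2). These values do not settle whether the numbers pair samples. With the replicate block the counts were 10, 0, 20, 10 and 22. Levels near 1 CPM rest on few counts, and changes of small size in such genes were not detectable at this depth.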
